A study of Mus musculus with 6 samples.

Results

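The insulin-like growth factor (IGF) system was followed in the mouse cerebellum through 10 genes, picked by symbol from the deposited count table. They were the ligand genes Igf1 and Igf2, the receptor genes Igf1r, Insr and Igf2r, and the binding protein genes Igfbp2, Igfbp3, Igfbp4, Igfbp5 and Igfbp7. Each symbol was listed once, and the 10 genes are set against the 26195 genes with at least 1 count. Cerebella came from 6-day-old C57BL/6 mice, 3 labelled wild type and 3 labelled SnoN cKO, a conditional knockout of the SnoN gene Skil, with 1 library of total RNA per sample. The study asks what SnoN does for the proliferation of granule neuron precursors in the postnatal cerebellum. The labels name neither the Cre driver nor the deleted exons nor the cells that lost the gene.

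IGF1 and IGF2 are secreted peptides related to insulin that act mainly through the tyrosine kinase receptor IGF1R, which signals to the kinases PI3K, AKT and mTOR and favours growth and survival. The insulin receptor shares this route, whereas IGF2R carries IGF2 to lysosomes for degradation, and the binding proteins hold the ligands outside cells and limit or prolong their action. In the young cerebellum Igf2 is known as a gene of the meninges and the choroid plexus, and IGF signalling is known to act with Sonic hedgehog on the division of granule neuron precursors.

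Libraries held between 12605870 and 17757711 counts on genes. Levels are CPM, the counts of a gene scaled to the library total after TMM scaling, given as mean ± SD over 3 libraries per genotype. This total covers the genes that passed the filter on low counts, and TMM adjusts it between libraries. Skil, the targeted gene, was at 89.5, 87.5 and 88.9 CPM in wild type 1, 2 and 3 and at 76.0, 74.7 and 77.5 CPM in SnoN cKO 1, 2 and 3. Every knockout library lay below every wild type library, by 14.2% in the fit, and Skil had an adjusted p of 0.433 over all genes by edgeR's quasi-likelihood test. Counts of Xist, a transcript of females, and of 4 Y-linked genes went against the labelled sex in 2 libraries. Xist had 35 counts in SnoN cKO 1, labelled female, and 37467 in SnoN cKO 2, labelled male. Both are knockout libraries, so an exchange between them alone would leave the genotype groups as they are. The reason for the mismatch was not tested, and fold changes are also given without these 2 libraries. Those values set SnoN cKO 3 alone against the wild type libraries and hold no spread between knockout libraries. SnoN cKO 2 further stood apart by its choroid plexus genes, with 200.2 CPM summed over 14 markers against 2197 to 4064 CPM in the other 5 libraries. Brainstem and midbrain markers were low in all libraries and lowest there. Their sum over all 13 was 17.2, 23.1 and 11.9 CPM in wild type 1, 2 and 3 and 9.09, 4.47 and 12.3 CPM in SnoN cKO 1, 2 and 3. The 7 that passed the filter on low counts were all negative, by a median log2 fold change of -1.19, none past the threshold, and the part of neighbouring tissue in the results was not tested.

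All 10 genes passed the filter on low counts, with between 270 and 10827 counts in a library. None of them differed between genotypes past the threshold of an adjusted p of 0.05, with adjusted p between 0.599 and 0.973 by edgeR's quasi-likelihood test. This is also the background, since 0 of 15457 genes tested (0%) passed. At an unadjusted p under 0.05 there was 1 of the 10 genes, Igfbp3, and 1216 of all genes (7.87%), and DESeq2 called 0 of the 10 genes and 6 of all genes. Of the 10 fold changes 8 were negative, with a median log2 fold change of -0.06, while over all genes 51.0% were negative and the median was -0.002.

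**Figure D1:**
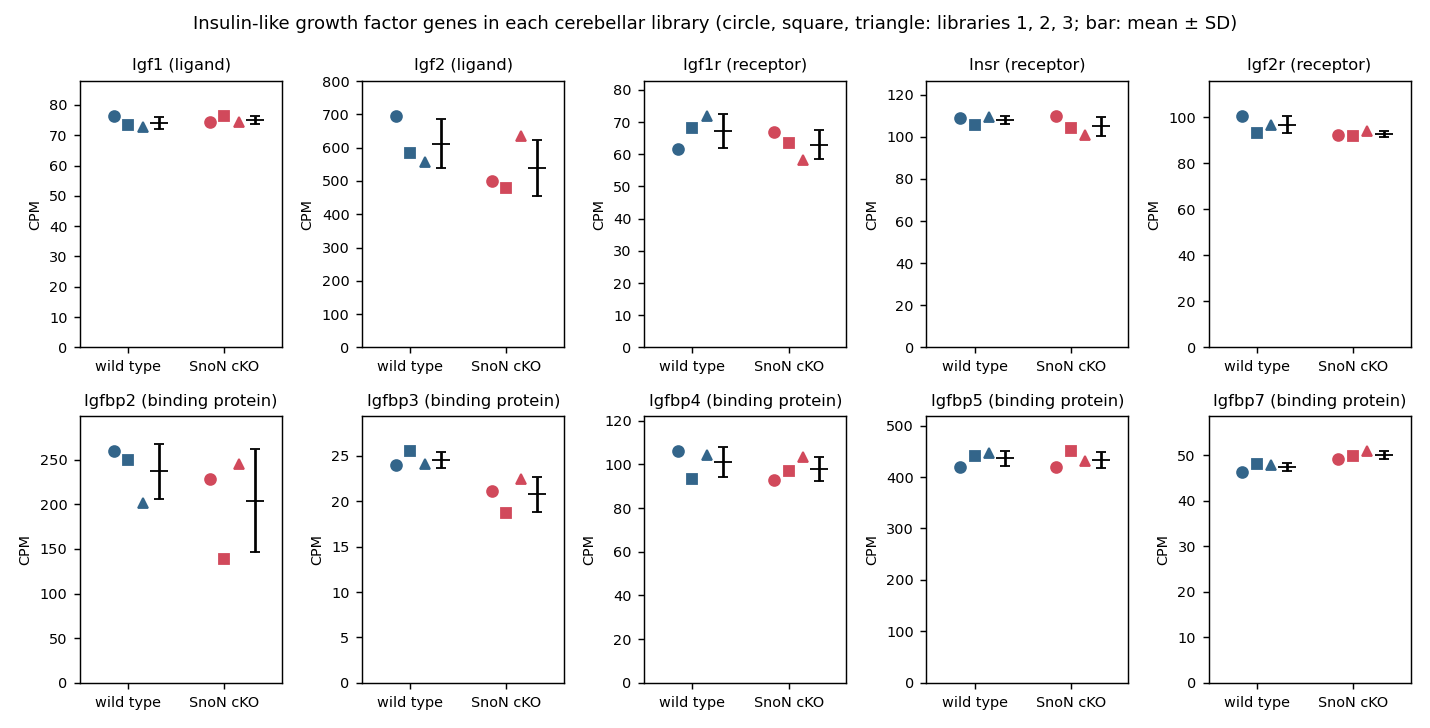
Level of each of the 10 genes in CPM (vertical axes, from 0) in the 3 wild type (blue) and 3 SnoN cKO (red) libraries, with mean ± SD as a black bar. The genotypes overlap in 8 genes. They are separate in Igfbp3, lower in SnoN cKO, and in Igfbp7, higher in SnoN cKO, as are 6.73% and 6.95% of all genes tested in these directions. Igfbp2 has a low value of 139 CPM in SnoN cKO 2.

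The levels of the 10 genes were ordered per exon length, because longer transcripts yield more reads. Exon lengths came from GENCODE M21 on another genome build than the counts, so this order is approximate. Igfbp2 stood highest at 119 CPM per kb (range over 6 libraries 75.1 to 140.5), followed by Igf2 at 100.5 CPM per kb (83.8 to 121.6), and these ranges overlapped. Igfbp5 came next at 72.4 CPM per kb, then Igfbp7 at 40.3 and Igfbp4 at 22.5 CPM per kb, each apart from its neighbours in every library. Binding proteins thus took 4 of the 5 highest places.

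The receptors and the second ligand stood lower. Igf2r was at 10.2 CPM per kb, Insr at 7.74, Igf1 at 7.53 and Igfbp3 at 7.23, and the ranges of the last 3 overlapped along this order. Igf1r, the main signalling receptor, was lowest at 3.88 CPM per kb (3.46 to 4.28), below every other gene of the system in every library. With the longest coding transcript as the length, Insr at 11.4 CPM per kb moved above Igf2r at 10.7, and the rest of the order did not change.

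**Figure D2:**
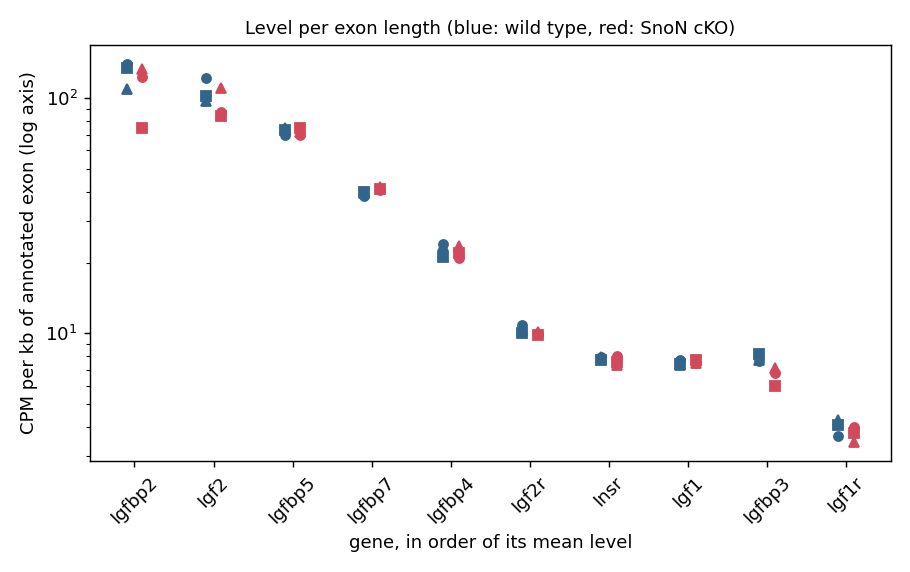
Level of each gene per kb of annotated exon (vertical log axis, CPM per kb) in each library (blue wild type, red SnoN cKO), ordered by mean. Igfbp2 and Igf2 lie near 100 CPM per kb on top, and Igf1r is lowest at 3.88.

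Of the ligands, Igf1 was the most even gene of the 10. It was at 76.2, 73.3 and 72.7 CPM in wild type 1, 2 and 3 and at 74.2, 76.4 and 74.4 CPM in SnoN cKO 1, 2 and 3. The genotypes overlapped, at 74.1 ± 1.88 CPM against 75.0 ± 1.19 CPM (SD, n = 3 each). The log2 fold change was 0.02 (SE 0.05), and its 95% interval ran from -5.65% to 8.80%. Igf1 is known to be made by Purkinje cells and microglia, whose marker lists stood at medians of 0.06 and 0.06 on the log2 scale. In them 9 of 12 and 11 of 12 genes were positive, and none passed the threshold.

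Igf2 held between 86.3% and 90.1% of the reads of the ligands in a library. It was at 696, 583 and 558 CPM in wild type 1, 2 and 3 and at 501, 480 and 635 CPM in SnoN cKO 1, 2 and 3. SnoN cKO 1 and 2 were the lowest of all libraries, while SnoN cKO 3 lay above wild type 2 and 3. The wild type mean was 612 ± 73.6 CPM and the SnoN cKO mean 538 ± 84.3 CPM (SD, n = 3 each), a log2 fold change of -0.18 (SE 0.14). The 95% interval of the difference ran from -31.8% to 13.5%, so the genotypes were not told apart. Single libraries set the size of this value, which was -0.08 without wild type 1, -0.31 without SnoN cKO 3 (unadjusted p 0.00327 and adjusted p 0.286 by edgeR) and 0.05 without SnoN cKO 1 and 2 together.

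Genes of the meninges, a known source of Igf2, also varied between libraries. All 14 meningeal and fibroblast markers were negative, the median on the log2 scale was -0.12, and none passed the threshold. Their summed level was 1491, 1262 and 1369 CPM in wild type 1, 2 and 3 and 1158, 1249 and 1380 CPM in SnoN cKO 1, 2 and 3, and none of them was at 0. Wild type 1 was thus highest, and SnoN cKO 3 was the highest knockout library, in both the marker sum and Igf2. The other orders differed: Igf2 was higher in wild type 2 than 3 and in SnoN cKO 1 than 2, and the marker sum was lower. The most abundant of these markers were the collagen genes Col3a1, with a log2 fold change of -0.01, and Col1a2, with -0.22, and Pdgfra, with -0.02, which oligodendrocyte precursors also express. In 1 of the 14, Col1a1, every knockout library lay below every wild type library, as in 6.73% of all genes tested. Its log2 fold change was -0.27 (SE 0.08), with an adjusted p of 0.584 by edgeR. The summed choroid plexus markers, of the other known source, were 3903, 3954 and 2197 CPM in wild type 1, 2 and 3. In SnoN cKO 1, 2 and 3 they were 4064, 200.2 and 3806 CPM. They were lowest in SnoN cKO 2, as was Igf2, but highest in SnoN cKO 1, where Igf2 was next to lowest. The part of meningeal and choroid plexus tissue in the Igf2 values was not tested.

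H19, a non-coding RNA gene that shares an imprinted region with Igf2 and is expressed from the other parental allele, did not move with it in every library. H19 was at 97.5, 94.7 and 95.9 CPM in wild type 1, 2 and 3 and at 47.5, 73.8 and 107 CPM in SnoN cKO 1, 2 and 3. The ratio of Igf2 to H19 counts was 10.5 in SnoN cKO 1 and between 5.81 and 7.14 in the other 5 libraries. SnoN cKO 1 also had the lowest H19, and because H19 divides in this ratio, a low H19 by itself raises it. The log2 fold change of H19 was -0.33 (SE 0.32), with an adjusted p of 0.828 by edgeR. The library kit does not record strand, and Igf2os, an antisense gene that shares 98 bases of exon with Igf2, had 36 to 69 counts against 6392 to 10827 for Igf2. The gene model Gm49394, which shares 3596 bases of exon with Igf2 on the same strand in GENCODE M21, was not used here.

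**Figure D3:**
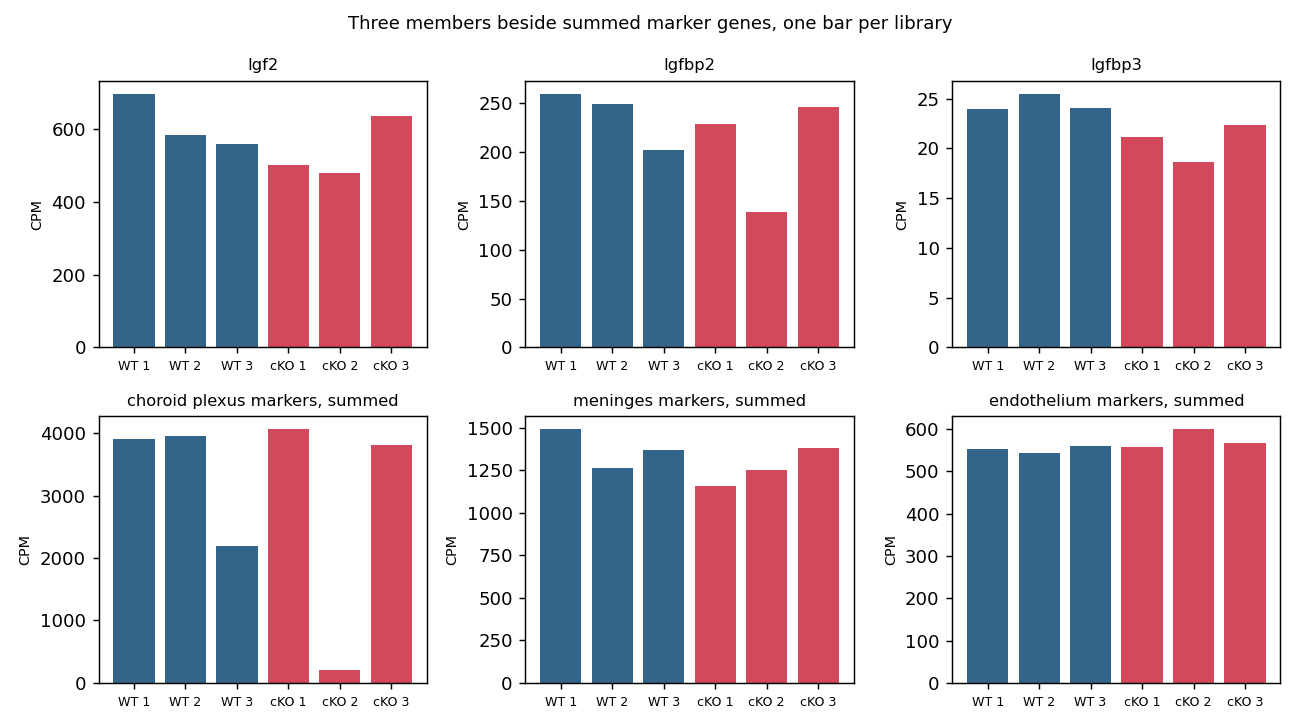
Igf2, Igfbp2 and Igfbp3 (upper row) beside the summed level of choroid plexus, meningeal and endothelial markers (lower row), in CPM from 0, with 1 bar per library (blue wild type, red SnoN cKO). In SnoN cKO 2 the choroid plexus sum is 200.2 CPM and Igfbp2 is at its lowest, 139 CPM.

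The 3 receptors had small negative fold changes. Igf1r, the receptor through which both ligands signal, was at 61.7, 68.2 and 71.9 CPM in wild type 1, 2 and 3 and at 67.0, 63.5 and 58.1 CPM in SnoN cKO 1, 2 and 3. The genotypes overlapped widely, with a log2 fold change of -0.10 (SE 0.07). Insr, the insulin receptor gene, was at 109, 106 and 109 CPM in the wild type libraries and at 110, 104 and 101 CPM in SnoN cKO, a log2 fold change of -0.04 (SE 0.05). Igf2r, the receptor that clears IGF2, was at 101, 93.3 and 96.7 CPM in the wild type libraries and at 92.3, 91.9 and 94.1 CPM in SnoN cKO, a log2 fold change of -0.06 (SE 0.05). In Igf2r only SnoN cKO 3 reached into the wild type range, above wild type 2. The 95% intervals ran from -15.4% to 3.10% for Igf1r, from -9.69% to 4.65% for Insr and from -10.8% to 2.86% for Igf2r. With 1 library left out, Igf1r ran from -0.16 (without wild type 1, unadjusted p 0.0429 by edgeR) to -0.04 (without SnoN cKO 3). Insr ran from -0.08 (without SnoN cKO 1) to -0.005 (without SnoN cKO 3), and Igf2r from -0.08 (without wild type 2) to -0.03 (without wild type 1). With SnoN cKO 3 as the only knockout library the log2 fold changes of Igf1r and Insr were -0.21 and -0.10, and that of Igf2r was -0.04. Airn, the antisense transcript that overlaps Igf2r, had 57 to 71 counts in a library against 1178 to 1605 for Igf2r.

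Igfbp3, which carries IGFs in the circulation and in tissue, was the gene with the lowest p of the system. It was at 23.9, 25.5 and 24.1 CPM in wild type 1, 2 and 3 and at 21.1, 18.7 and 22.4 CPM in SnoN cKO 1, 2 and 3. Each knockout library lay below each wild type library, at 24.5 ± 0.864 CPM against 20.7 ± 1.90 CPM (SD, n = 3 each). Such a separation was found in 1 of the 10 genes in this direction, and in 6.73% of all genes tested. The log2 fold change was -0.24 (SE 0.09), a difference of -15.3% with a 95% interval from -25.4% to -3.90%. Igfbp3 ranked 344 of 15457 genes by p, with an unadjusted p of 0.0136 and an adjusted p of 0.599 by edgeR's quasi-likelihood test. The value was -0.17 without SnoN cKO 2 and -0.13 without SnoN cKO 1 and 2 together, and adjusted p over all alternatives ran from 0.318 to 1.

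Igfbp2, a binding protein gene of the choroid plexus, meninges and glia, was the most variable of the 10, with a spread of 0.90 on the log2 scale from lowest to highest library. It was at 260, 249 and 202 CPM in wild type 1, 2 and 3 and at 228, 139 and 246 CPM in SnoN cKO 1, 2 and 3. SnoN cKO 2 was the lowest library and wild type 3 the next. The same libraries were lowest in the summed choroid plexus markers, at 200.2 CPM in SnoN cKO 2 and 2197 CPM in wild type 3 against 3806 to 4064 CPM in the other 4. In SnoN cKO 2 the transthyretin gene Ttr was at 17.3 CPM, the secreted lysophospholipase gene Enpp2 at 133 CPM and the homeobox gene Otx2 at 22.0 CPM, against at least 1641, 339 and 46.2 CPM elsewhere. On the log2 scale all 14 markers were negative, by a median of -0.33. None of them passed the threshold and none was at 0 in all libraries. The sum of astrocyte and Bergmann glia markers lay the other way, at 4385 to 4401 CPM in wild type and 4532 to 4837 CPM in SnoN cKO. It was highest in SnoN cKO 2. Of these 11 markers 7 were positive, the median on the log2 scale was 0.10, and none passed the threshold. The most abundant were the glutamate transporter gene Slc1a3, the fatty acid binding protein gene Fabp7 and the water channel gene Aqp4, which differed by 0.13, 0.15 and 0.15. The 4 negative markers were Gja1 at -0.25, Slc1a2 at -0.16, Aldoc at -0.11 and Sox9 at -0.08. In Slc1a2 every knockout library lay below every wild type library, and in 4 markers, Slc1a3, Fabp7, Aqp4 and Hopx, above. The list thus did not move as one, and 6.73% and 6.95% of all genes tested were separate in these directions. The part of choroid plexus and glia in the Igfbp2 values was not tested. In bulk tissue, fewer cells of a type and less RNA per cell cannot be told apart.

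The genotype difference of Igfbp2 rested on that library. With all libraries its log2 fold change was -0.21 (SE 0.27), with a 95% interval from -48.3% to 43.7%. Without SnoN cKO 2 it was 0.00095 (SE 0.12), and without SnoN cKO 1 and 2 together it was 0.05 (SE 0.15). Among 12287 other genes with a mean of at least 5 CPM, those whose profile over the 6 libraries lay nearest to Igfbp2 were Fam84b, Csgalnact1, Slc4a2, Ntsr2 and Cybrd1. Their root mean square differences from Igfbp2, on centred log2 CPM, were 0.04, 0.05, 0.05, 0.05 and 0.06. Each was lowest in SnoN cKO 2, where the anion exchanger gene Slc4a2 was at 39.3 CPM against 54.7 to 69.3 CPM elsewhere. The genes were picked for this likeness, so their low value in SnoN cKO 2 follows from the choice.

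Igfbp5, the binding protein gene with most reads, was level between genotypes within a narrow interval. It was at 420, 441 and 447 CPM in wild type 1, 2 and 3 and at 420, 450 and 430 CPM in SnoN cKO 1, 2 and 3. The genotypes overlapped almost fully, with a log2 difference of -0.01 (SE 0.05) and a 95% interval from -7.39% to 6.72%. Igfbp5 held between 49.1% and 59.7% of the reads of the 5 binding protein genes, with the highest share in SnoN cKO 2, where Igfbp2 held 18.4% against 24.5% to 30.3% elsewhere. These are shares of reads and depend on transcript length.

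Igfbp4, whose product is cleaved by the protease PAPP-A, was at 106, 93.5 and 104 CPM in wild type 1, 2 and 3 and at 92.7, 96.9 and 104 CPM in SnoN cKO 1, 2 and 3. The genotypes overlapped, with a log2 fold change of -0.05 (SE 0.06) that ran from -0.10 without wild type 2 to -0.01 without SnoN cKO 1. Igfbp7, which binds IGFs weakly and is known as a vascular gene, was at 46.4, 48.1 and 47.9 CPM in the wild type libraries and at 49.3, 49.9 and 50.9 CPM in SnoN cKO. Each knockout library lay above each wild type library, as in 6.95% of all genes tested. The log2 fold change was 0.08 (SE 0.06), with a 95% interval from -3.05% to 14.5% and an adjusted p of 0.747 by edgeR. Igfbp7 shares 85 bases of exon in GENCODE M21 with Polr2b on the opposite strand, which had 1923 to 2782 counts against 593 to 868 for Igfbp7. Without strand, reads from those bases could not be assigned.

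Endothelial markers, given beside Igfbp7 and Igfbp3, summed to between 545 and 561 CPM in wild type and between 558 and 600 CPM in SnoN cKO. Of the 12 markers 8 were positive, the median on the log2 scale was 0.06, and none passed the threshold. The tight junction gene Cldn5 had a log2 fold change of 0.13, the VEGF receptor gene Kdr of 0.07 and the cadherin gene Cdh5 of -0.03. Every knockout library lay above every wild type library in 3 markers, Cldn5, Tek and Tie1, and below in 1, Flt1, at -0.17. Over all genes tested these shares were 6.95% and 6.73%. Pericyte and smooth muscle markers had 6 of 9 positive and a median of 0.04. The part of vascular cells in these values was not tested.

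**Figure D4:**
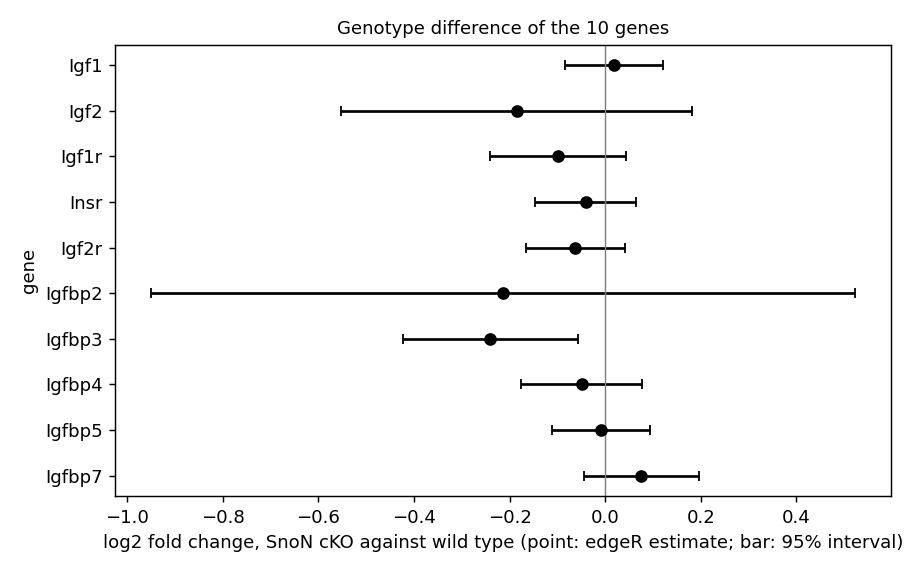
Log2 fold change of each gene, SnoN cKO against wild type (horizontal axis), with edgeR's estimate as a point and the 95% interval as a bar. The interval of Igfbp3 lies below 0 before adjustment for the number of genes, Igfbp2 has the widest interval, and in 7 genes the interval stays within 20% in each direction.

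Other genes of the pathway were read from 4 lists with 66 entries, of which 61 passed the filter on low counts. None rose and none fell past the threshold by edgeR's quasi-likelihood test, and 5 of the 61 (8.20%) had an unadjusted p under 0.05, against 7.87% of all genes tested. Their median log2 fold change was -0.01, with 28 positive and 33 negative, and their smallest adjusted p was 0.584. Knockout libraries lay above all wild type libraries in 4 of the 61 genes and below in 1, shares no higher than the 6.95% and 6.73% of all genes tested.

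Among the other ligands, receptors, binding proteins and Igf2 partners, 8 of 12 entries were measured, 3 positive and 5 negative, with a median log2 fold change of -0.15. The smallest p belonged to Igfbpl1, an IGF binding protein-like gene, at 330 ± 21.7 CPM against 356 ± 30.3 CPM in the knockout (SD, n = 3 each), to Igf2bp2, which encodes an RNA-binding protein, with -0.16 (SE 0.11), and to the growth hormone receptor gene Ghr, with -0.13 (SE 0.10). The insulin genes stayed below the filter, with Ins1 at 0 counts in all libraries and Ins2 at no more than 8. Igfbp1 and Igfals, whose products are made mainly in liver, were below it too.

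Of 7 genes for binding protein proteases and their inhibitors 3 were positive and 4 negative, with a median of -0.06. Stc1, an inhibitor of PAPP-A, was at 7.51, 6.38 and 4.75 CPM in wild type 1, 2 and 3 and at 4.62, 3.25 and 5.40 CPM in SnoN cKO 1, 2 and 3, a log2 fold change of -0.48 (SE 0.21). The protease gene Htra1 had a log2 fold change of -0.18 (SE 0.12).

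Adaptors and kinases under the receptors numbered 26, with 10 positive and 16 negative and a median of -0.01. Sgk1, a kinase gene of the PI3K route, was at 59.6, 58.4 and 57.1 CPM in the wild type libraries and at 63.8, 68.3 and 65.2 CPM in SnoN cKO, with no overlap and a log2 fold change of 0.17 (SE 0.05). Akt1, a central kinase of the pathway, differed by 0.12 (SE 0.05) and Irs1, the docking protein of the receptors, by -0.14 (SE 0.06) on the log2 scale. Of 20 measured mTOR and other output genes 12 were positive and 8 negative, with a median of 0.03. Rps6kb2, not measured, had 0 counts in all libraries, and the ribosomal protein gene Rps6, measured, had 34 to 57 counts. Whether these 2 entries hold all reads of their genes was not tested. Akt1s1, which encodes an mTOR inhibitor phosphorylated by AKT, was at 67.9, 67.8 and 73.0 CPM in the wild type libraries and at 77.5, 82.4 and 76.7 CPM in SnoN cKO, with no overlap and a log2 fold change of 0.18 (SE 0.05). The mTOR partner gene Rptor differed by -0.11 (SE 0.05) and the mTOR activator gene Rheb by 0.09 (SE 0.05) on that scale. Each of these genes had an adjusted p of at least 0.584 by edgeR.

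**Figure D5:**
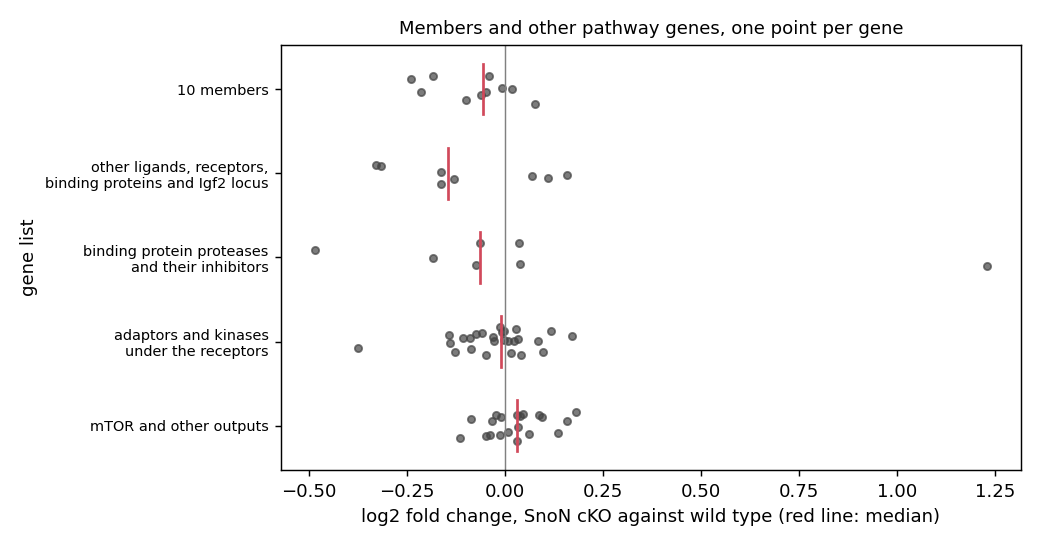
Log2 fold change, SnoN cKO against wild type (horizontal axis), of the 10 genes and of the 61 other measured pathway genes by list, with 1 point per gene and the median as a red line. The medians lie between -0.15 and 0.03, and the point at 1.23 is Pappa, at 58.4 CPM in SnoN cKO 3 and 4.67 to 16.3 CPM in the other libraries.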

How the data were processed

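The table the authors deposited holds raw counts of reads on genes for all 6 libraries. STAR 2.0.4b, featureCounts 1.4.5, Subread and mm9 are named per the submitters' processing notes; the gene annotation is not given in the sources at hand. Per the labels' protocols, the kit was NEBNext Ultra with single-end reads. Of 39647 entries that could be checked against GENCODE M21 names, the identifier belonged to the symbol in 97. Counts of Xist and Y-linked genes followed the symbols, so symbols were used and neither identifiers nor coordinates are given. Entries repeating a symbol and its counts (140) were kept once.

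Genotypes were compared in R 4.3.3 with edgeR 4.0.16 (quasi-likelihood test, robust, two-sided, no covariates, TMM scaling, filterByExpr at a minimum count of 10, Benjamini-Hochberg at 0.05 over 15457 genes). The common biological coefficient of variation was 9.71%. SE came from the fold change and F statistic. The code was tested on simulated data. DESeq2 1.42.0, other scaling, no filter, labelled sex, replicate number and left-out libraries were alternatives. The labels do not say in words that the libraries are separate animals. The p-values thus set the genotype difference against the spread between these samples, estimated with information from all genes. With 3 libraries against 3 the smallest exact two-sided permutation p is 0.1, so no such test was run. The genes and lists were chosen with earlier results of these data known. Named genes were the 10 members, the genes with the 3 smallest p per pathway list and Skil. Also named were the 5 genes with the profile nearest to the most variable member and the 3 most abundant markers of a list. Of the astrocyte and Bergmann glia markers the negative ones were named too. In that list and in the meningeal and endothelial lists, markers with no overlap between genotypes were named as well.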

Additional observations from a re-analysis of the deposited data

How the results depend on the processing

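Neither the 10 genes nor the other pathway genes had a call under any of the 13 alternatives, the fit with labelled sex included. Over all genes, calls numbered 165 (38 higher, 127 lower) without the filter on low counts, 6 with DESeq2, 1 with labelled sex as a covariate, 1 with the replicate block and 10 without the SnoN cKO libraries 1 and 2, an alternative chosen after seeing the data that leaves 1 knockout library, assumed to vary like the wild type. They numbered 0 with each library left out in turn, with the other scaling and with repeated entries kept. The cause of these differences was not tested. Because Xist and Y-linked counts go against the labelled sex in 2 libraries, the fit with labelled sex does not adjust for the sex seen in the counts and says nothing about stability, and no fit used the latter. Of 130 alternative fold changes of the 10 genes 121 kept their sign. Igfbp5 turned to 0.0013 without the filter, and with each library left out in turn it ran from -0.036 to 0.014, above 0 without wild type 2 or 3 or SnoN cKO 1 or 3. Igfbp2 ran from -0.36 to 0.00095, above 0 without SnoN cKO 2. Without SnoN cKO 1 and 2 together Igfbp2 turned to 0.051, Igf2 to 0.052 and Igfbp4 to 0.034. In that fit Igf1 was at 0.0064, Igfbp5 at -0.0195 and Igfbp7 at 0.0995. Same-numbered libraries did not deviate together (correlations across genes of -0.04, -0.32 and -0.18), so the replicate numbers were not taken as pairs. Between differently numbered libraries the correlations ran from -0.17 (wild type 1 with SnoN cKO 3) to 0.39 (wild type 2 with SnoN cKO 3), and the cause was not tested. The replicate block called none of the 10 genes. Igfbp3, with 270 to 384 counts in a library, had the least depth of the 10 genes.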

Other observations

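Pappa, which encodes the protease PAPP-A that cleaves Igfbp4 protein, differed most between single libraries among the pathway genes. It was at 6.42, 16.3 and 7.33 CPM in wild type 1, 2 and 3 and at 6.74, 4.67 and 58.4 CPM in SnoN cKO 1, 2 and 3. SnoN cKO 3 was the highest library and wild type 2 the next, and the log2 fold change was 1.23 (SE 1.23).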
